A study of Drosophila melanogaster with 18 samples.

Results

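The fourth chromosome of Drosophila melanogaster is the small dot chromosome, and 37 of its protein-coding genes were followed here across ovary samples. A gene was read from probe sets that the array's annotation, with symbols updated to Release 6 of the fly genome, names for that gene alone. Where a gene had several such sets, the set with the highest mean over all arrays was used. Of the 37 genes, 31 had a probe set, against 11982 genes with one in the whole table. The 6 genes without one, not analysed here, were pan, lgs, pho, PlexA, CaMKI and Arf102F. Release 6 places all 37 genes on chromosome 4. A further 34 genes there had a probe set, so that 65 of its 114 annotated genes were measured.

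The fourth chromosome is largely packaged as heterochromatin, yet its genes are transcribed. The protein Pof coats it, and the histone methyltransferase Setdb1 and heterochromatin protein HP1a act there together with Pof. The set includes developmental regulators such as ci, the transcription factor of Hedgehog signalling, and eye-development factors such as ey and toy. They also include genes of general cell function such as gw, which encodes the GW182 protein of microRNA silencing.

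RNA levels came from ovaries of females on Affymetrix Drosophila Genome 2.0 arrays, 18 samples in 6 groups of 3. Flies kept at 20 °C gave 4 groups. They were the control strain yw, Marcal1del/del, RpII2154/FM7, and a strain with both changes, RpII2154/FM7;Marcal1del/del, called the combined genotype below. Both yw and Marcal1del/del were also sampled at 25 °C. In Marcal1del/del both copies of Marcal1 carry a deletion. Its product is related to SMARCAL1, a human annealing helicase. RpII2154 is an allele of RpII215, which encodes the largest polymerase II subunit, and FM7 is an X-chromosome balancer. For replicates 2 and 3 of RpII2154/FM7, FM8 and FM9 stand in the genotype labels where the titles have FM7, and the group was taken from the titles. The design text calls the 3 samples of a group biologically independent, and no age of the flies was given in the sources used here. Whether the stocks carry the same dot chromosome or genetic background was likewise not given, so each genotype difference is a difference between stocks. Values are RMA log2 intensities, for which the number of arrays limits the precision. In whole ovaries, fewer cells of a type and less RNA per cell cannot be told apart. Each log2 change below is from limma fitted to all 18769 probe sets and 18 arrays. A gene was called when its p-value, adjusted over all probe sets by the Benjamini-Hochberg method, was under 0.05.

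The Marcal1 probe set was lower in each deletion group than in its control, by 2.07 on the log2 scale at 20 °C (change -2.07 ± 0.22 SE, adjusted p = 4.4e-05, n = 3 arrays a group), with changes of -2.08 at 25 °C and -1.95 in the combined genotype. The array names fell into 2 series, and RpII2154/FM7 and the combined genotype made up one of them. Series and genotype therefore cannot be told apart where these groups are set against yw or Marcal1del/del. The mean of 14 eggshell genes of late follicle cells was 9.73 on yw replicate 1 at 20 °C against 12.35 and 12.41 on the other arrays of its group. It was 8.47 on RpII2154/FM7 replicate 3 against 12.74 and 12.95. The mean of 19 muscle genes was 7.88 on yw replicate 1 at 25 °C against 5.81 and 6.03. These 3 arrays stood apart from their groups, and some of the results that rest on them are given with and without them. Of 14 germline and late egg chamber genes, a list with vas, osk and the yolk protein genes, 12 were above the median of every array. The mean of 15 hemocyte genes was 5.34 to 6.30. Single marker genes were called in some comparisons. With Marcal1del/del at 20 °C TpnC4 (muscle, -1.70), Vmat (neuron, -0.97) and PPO3 (hemocyte, 0.88) were called, and at 25 °C Vmat (-0.85) and srp (hemocyte, 2.00). PPO3 was called with temperature in Marcal1del/del (-0.94), and Vmat (1.12) and bam (germline, 1.65) for the difference of effects with the RpII215 allele. In the combined genotype, bam (1.08), bgcn (germline, -0.61) and PPO1 (hemocyte, -0.79) were called against RpII2154/FM7, and srp (-1.97) and bam (0.92) against Marcal1del/del. In RpII2154/FM7 against yw the calls were PPO1 (0.79), PPO3 (0.73) and bgcn (0.85). The 3′ minus 5′ signal of the actin controls, which rises as RNA degrades, was 1.26 to 2.04 in the 6 arrays of the RpII2154/FM7 series and 0.75 to 1.23 in the others.

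The 31 genes fell into those with signal in every sample and those near the low end of the array. Array medians lay between 4.08 and 4.20. Of the 31 genes, 16 (51.6%) were above the median of the array on all 18 arrays, 10 (32.3%) were below it on all, and 5 lay between. Over all 11982 genes the shares were 55.5% and 30%. For the other 34 genes there they were 58.8% and 26.5%. The genes differed by role. All 5 measured genes of guidance and adhesion signalling were above every median, as were 7 of 9 genes of RNA, DNA, membrane and other cell functions. Of 10 transcriptional regulators apart from ci, 1 was above every median and 5 were below. The neuron marker list, made of genes such as elav, nSyb and Syt1, averaged only 3.73 to 4.02 over the arrays, with 7 of 17 genes below every median and 3 above every one.

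**Figure D1:**
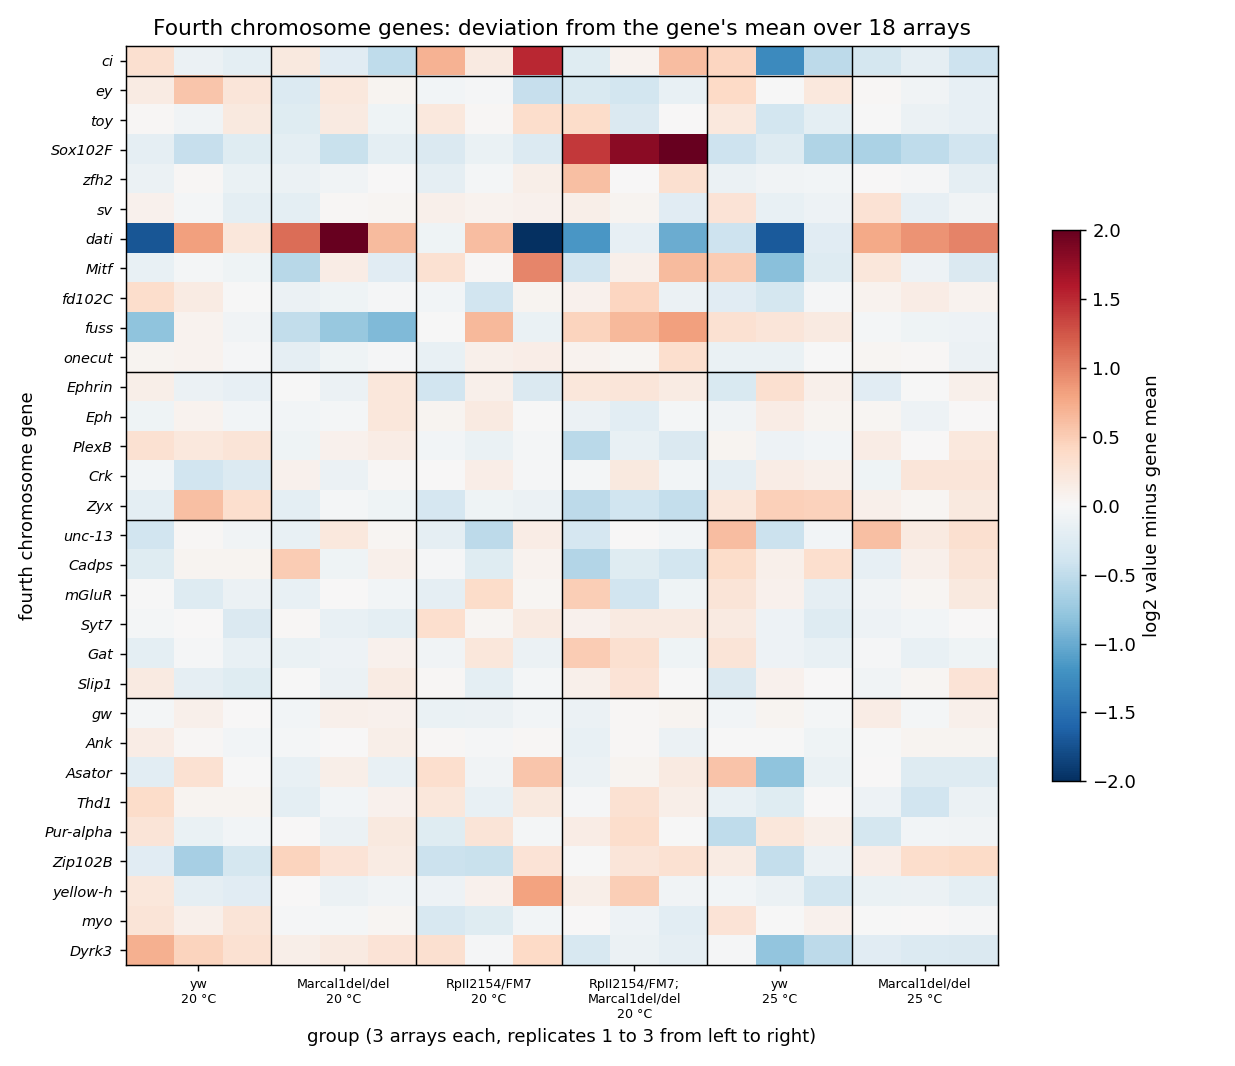
Deviation of each of the 31 genes (rows, in the order of their roles, separated by lines) from its own mean over 18 arrays, for the 3 arrays of each group (columns). Colour gives the log2 difference and is cut at -2 and 2. The rise of Sox102F in the combined genotype and the uneven values of dati stand out against rows that are mostly pale.

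Few of these genes were called between the groups, which does not show that the others were unchanged. In 9 comparisons of 31 genes each, 279 pairs of gene and comparison, 6 calls were made, for Sox102F (in 3 comparisons), fuss, Dyrk3 and myo. Of all 18769 probe sets, 0.0107% to 3.85% were called in the same comparisons, so few calls are not particular to these genes. Sox102F, which encodes a transcription factor of the Sox family, was highest in the combined genotype. The median log2 change of the 31 genes lay between -0.07 and 0.08 in each of the 9 comparisons. A level of the whole chromosome was taken over 41 measured genes that lie above the low end of the array, and the median deviation of an array from the gene means was -0.12 to 0.08. By group this level averaged from -0.07 ± 0.05 (SD, n = 3) in yw at 25 °C to 0.02 ± 0.06 in yw at 20 °C. Sox102F is among the 41 genes only through its values in the combined genotype. The median of the within-group SD was 0.19 for the 31 genes and 0.17 for all genes. The standard error of a difference between 2 groups was 0.08 to 0.69, with a median of 0.15.

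**Figure D2:**
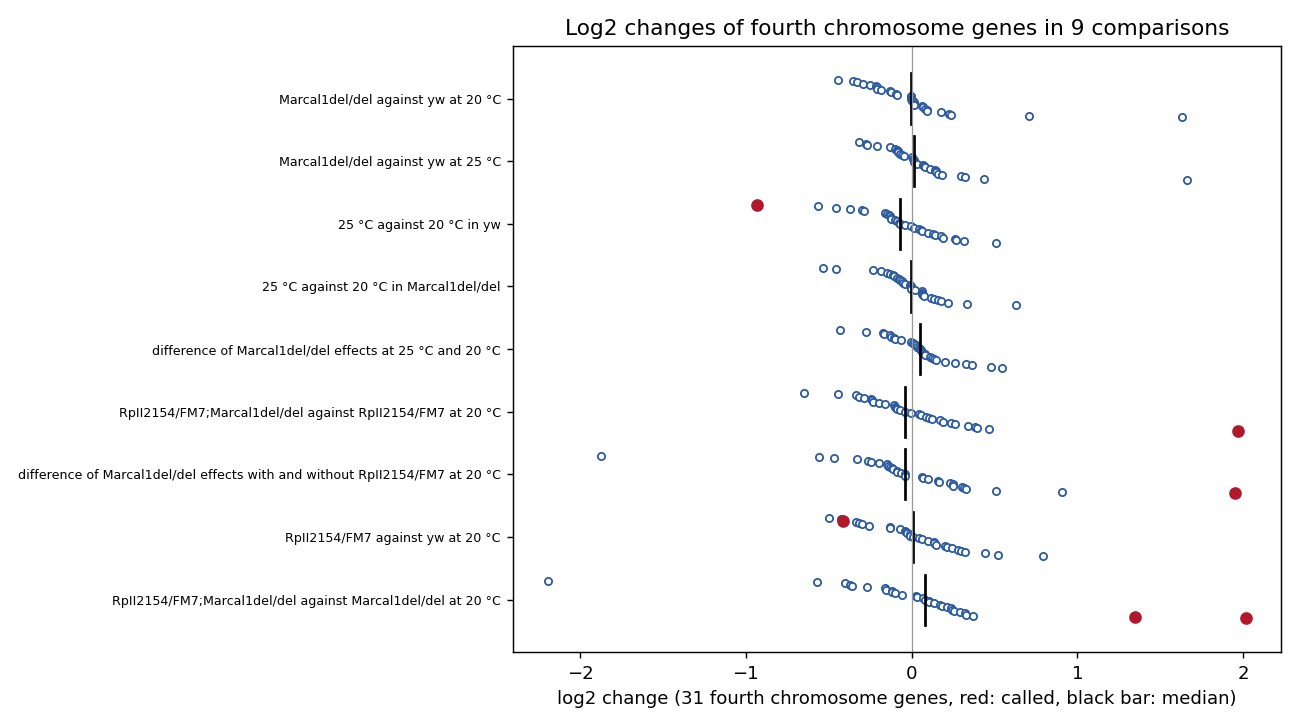
Log2 change of each of the 31 genes (points) in each of the 9 comparisons (rows), sorted within a row. Red points are called at an adjusted p under 0.05, and black bars are the medians of the genes. All medians lie between -0.07 and 0.08, and the 6 red points are Dyrk3, Sox102F (3 times), myo and fuss.

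Marcal1del/del was first set against yw, the comparison that asks what accompanies the loss of Marcal1. At 20 °C none of the 31 genes was called by limma, where 1.18% of all probe sets were, and 5 had an unadjusted p under 0.05. At 25 °C again none was called, where 1.23% of all probe sets were, and 2 had an unadjusted p under 0.05. The log2 changes of the 31 genes had medians of 0.00 (15 positive) and 0.01 (19 positive). Over all 11982 genes the medians were 0.01 and -0.02. In the largest differences, dati and Zip102B were higher in Marcal1del/del at both temperatures, without passing the test.

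For dati, which encodes a zinc-finger transcription factor, the yw arrays at 20 °C read 3.50, 6.03 and 5.44 and the Marcal1del/del arrays 6.33, 7.71 and 5.83. At 25 °C the yw arrays read 4.79, 3.52 and 4.97 and the Marcal1del/del arrays 5.97, 6.10 and 6.20. The groups overlapped at 20 °C and did not at 25 °C. The log2 differences were 1.63 ± 0.69 SE (adjusted p = 0.54, limma) and 1.66 ± 0.69 (adjusted p = 0.48). Over the alternatives tried, among them fits without the arrays that stood apart, they ranged from 0.86 to 2.16 and from 0.67 to 1.94. None of these was a call. In RpII2154/FM7 dati read 5.12, 5.82 and 3.07, and in the combined genotype 4.04, 5.04 and 4.22. In each of the 6 groups, the array with the lowest dati value was also the one with the lowest eggshell mean. On yw replicate 1 at 20 °C these were 3.50 and 9.73, and on RpII2154/FM7 replicate 3 they were 3.07 and 8.47. The highest dati value of all arrays, 7.71, was on the array with the highest eggshell mean, 13.11. The part of the eggshell difference in the dati values was not tested. At both temperatures all 14 eggshell genes were higher in Marcal1del/del than in yw, with medians of 1.17 and 1.66 (0 called by limma, 1 and 6 with an unadjusted p under 0.05). A second dati probe set averaged 2.84, below the array medians, and its differences were 0.09 ± 0.14 at 20 °C and -0.33 ± 0.14 at 25 °C, neither called.

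Zip102B, a zinc transporter of the ZIP family, was described with dati after its values were seen. It read 7.37, 6.92 and 7.23 in yw and 8.03, 7.86 and 7.75 in Marcal1del/del at 20 °C, groups that did not overlap. The difference was 0.71 ± 0.19 SE (adjusted p = 0.12, limma). With the 3 outlying arrays left out, the difference was 0.81 and was called (adjusted p = 0.0093). At 25 °C the arrays read 7.75, 7.10 and 7.47 in yw and 7.72, 7.95 and 7.96 in Marcal1del/del (0.43 ± 0.19, adjusted p = 0.54). In RpII2154/FM7 they read 7.16, 7.14 and 7.86, and in the combined genotype 7.58, 7.82 and 7.90, which overlap.

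Zyx, the fly zyxin of cell adhesion sites and of Hippo signalling, was also singled out after its values were seen. In yw at 20 °C it read 8.99 on replicate 1, which stood apart on eggshell genes, and 9.77 and 9.51 on the others. In Marcal1del/del it read 8.98, 9.14 and 9.09. The difference was -0.35 ± 0.15 SE with all arrays (not called, limma) and -0.57 without the 3 arrays that stood apart (adjusted p = 0.014). Leaving out yw replicate 1 alone gave the same -0.57 with an adjusted p of 0.02. In RpII2154/FM7 against yw, Zyx differed by -0.43 ± 0.15 (adjusted p = 0.15) with all arrays and by -0.64 without yw replicate 1 (adjusted p = 0.0061).

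Temperature was compared within each genotype, where 25 °C is the heat stress of the labels. In yw, 1 of the 31 genes was called, Dyrk3, which encodes a dual-specificity kinase, where 0.256% of all probe sets were called. In Marcal1del/del 0 were called by limma against 0.202% of all probe sets, and 2 had an unadjusted p under 0.05. The medians of the log2 changes were -0.07 in yw and -0.01 in Marcal1del/del, against 0.02 and 0.00 over all genes. Whether the Marcal1del/del effect differed between temperatures was tested as well, and 0 of the 31 genes were called by limma against 0.0107% of all probe sets, with 2 at an unadjusted p under 0.05.

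Dyrk3 read 7.67, 7.41 and 7.27 in yw at 20 °C and 6.93, 6.18 and 6.43 at 25 °C. In Marcal1del/del it read 7.08, 7.15 and 7.24 at 20 °C and 6.74, 6.68 and 6.67 at 25 °C. All arrays at 25 °C lay below all arrays of the same genotype at 20 °C. The change was -0.93 ± 0.16 SE in yw, 1.91-fold lower (adjusted p = 0.018, limma), and -0.46 ± 0.16 in Marcal1del/del (adjusted p = 0.75). The difference between these changes, 0.48 ± 0.23, was not called (adjusted p = 1). The yw call was lost when only the 6 yw arrays were fitted (adjusted p = 0.42). It was lost too without yw replicate 1 or 2 at 20 °C, or replicate 2 or 3 at 25 °C (adjusted p = 0.072, 0.072, 0.11 and 0.11). Leaving out the 3 outlying arrays gave a change of -1.03 (adjusted p = 0.0025). Dyrk3 read 7.28, 6.94 and 7.36 in RpII2154/FM7 and 6.63, 6.84 and 6.78 in the combined genotype.

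The combined genotype was then compared with RpII2154/FM7, within 1 array series, which asks what Marcal1del/del adds in flies with the polymerase allele. Of the 31 genes, 1 was called, where 1.88% of all probe sets were, and it was Sox102F. Its arrays read 5.65, 6.04 and 6.25 in the combined genotype and 3.95, 4.1 and 3.96 in RpII2154/FM7. They read 4.06, 3.78 and 3.99 in yw and 4.04, 3.80 and 4.04 in Marcal1del/del at 20 °C. At 25 °C they read 3.82, 3.98 and 3.64 in yw and 3.61, 3.73 and 3.85 in Marcal1del/del. The 3 arrays of the combined genotype lay above the other 15, and were the only ones above the array's median. The group means were 5.98 ± 0.30 (SD, n = 3) in the combined genotype and 3.73 to 4.01 in the other 5 groups.

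Sox102F rose 3.92-fold over RpII2154/FM7 (log2 change 1.97 ± 0.14 SE, adjusted p = 8.5e-07, limma). Over Marcal1del/del, across the array series, it rose 4.04-fold (2.02 ± 0.14, adjusted p = 2.5e-07). Both comparisons share the arrays of the combined genotype. Marcal1del/del against yw gave 0.02 ± 0.14 at 20 °C. The Marcal1del/del effect with the RpII215 allele exceeded that without it by 1.95 ± 0.20 (adjusted p = 3.4e-05). Of the 31 genes it was the only one called in that test of the difference, where 0.97% of all probe sets were called. The size of these 3 differences lay between 1.82 and 2.18 in every alternative tried, and the calls stood in each. One alternative kept only probe sets with a mean above 4.15. Sox102F, with a mean of 4.24, passed it only through the combined genotype, so that alternative adds no separate support. The lower groups lie below every array median, so the folds are ratios of values near the low end of the array. The neuron marker mean on the combined genotype's arrays was 3.86 to 4.02 and on the other arrays 3.73 to 3.97. Other lists moved with the rise of Sox102F over RpII2154/FM7. There 17 of 19 muscle genes were lower (median -0.94, 12 with an unadjusted p under 0.05, 0 called by limma). Of 15 hemocyte genes 14 were lower (median -0.45, 1 called), and 12 of 14 eggshell genes (median -0.70, 0 called, 2 with an unadjusted p under 0.05). The 3′ minus 5′ actin signal was 1.48, 1.60 and 2.04 in the combined genotype and 1.28, 1.56 and 1.26 in RpII2154/FM7. The part of these differences in the Sox102F result was not tested.

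Along the chromosome none of the 4 nearest measured genes was called with Sox102F. MED26, a subunit gene of the Mediator complex, lies before it and changed by 0.08 against RpII2154/FM7. Before that lies the muscle gene bt, which changed by -1.31 (adjusted p = 0.29). On the other side fd102C, a forkhead factor gene, changed by 0.26 and Gyf, which encodes a GYF-domain protein, by 0.00. The next largest increase among the 31 genes was that of fuss, 0.46 ± 0.21 SE (adjusted p = 0.25), and the median over the 31 genes was -0.04 against 0.03 over all genes.

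**Figure D3:**
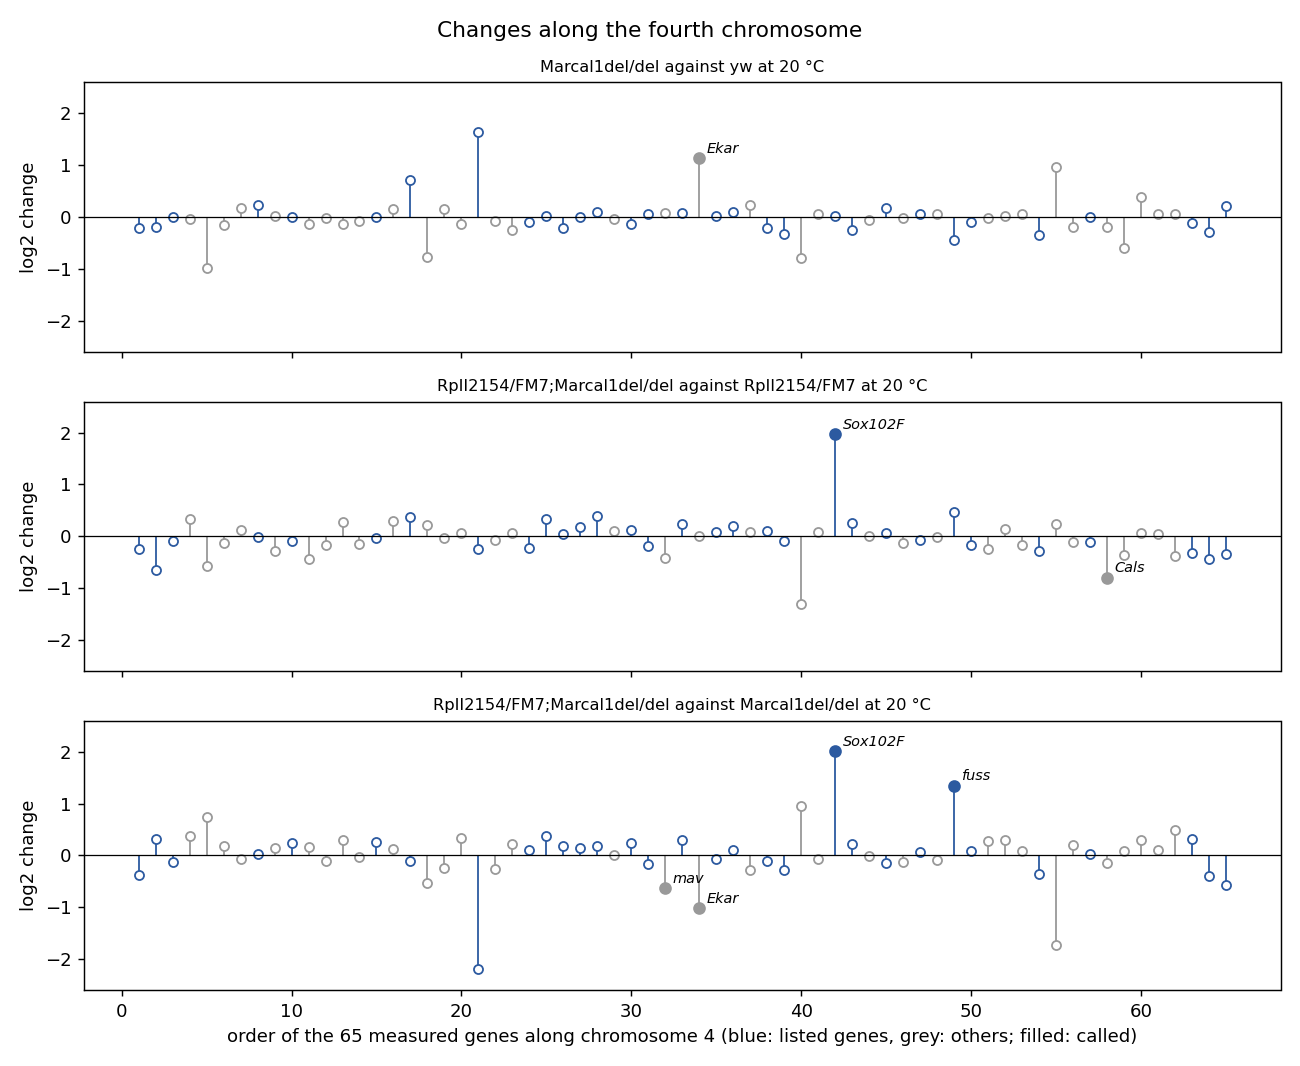
Log2 change of 65 measured genes in their order along chromosome 4, for 3 comparisons at 20 °C. Blue points are the 31 listed genes, grey points the other 34, and filled points are called. Sox102F stands at 1.97 and 2.02 in the lower panels with no called gene beside it, and dati reaches 1.63 in the upper panel and -2.19 in the lowest without a call.

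Of the 31 genes, 7 did not overlap between the combined genotype and RpII2154/FM7, where 22.4% of all probe sets did not, a like share. They were Sox102F, Dyrk3, Ephrin, Eph, PlexB, Zyx and Cadps, and of these only Sox102F was called. Other genes were called here only under other settings. Zip102B was called without the 3 arrays that stood apart (0.62, adjusted p = 0.034). The zinc-finger factor gene zfh2 was called without replicate 2 of the combined genotype (0.50, adjusted p = 0.047), at levels of 2.48 to 3.27 that lie below every array median. The same array left out also made zfh2 a call against Marcal1del/del (0.52, adjusted p = 0.023). Dyrk3 changed by -0.44 ± 0.16 (adjusted p = 0.16). Ephrin, the ligand gene of the receptor Eph, changed by 0.40 (not called). Ephrin arrays read 9.03, 9.05 and 8.96 in the combined genotype and 8.43, 8.91 and 8.51 in RpII2154/FM7. Eph, its receptor, read 8.86, 8.78 and 8.94 against 9.04, 9.15 and 8.97 (change -0.20, not called).

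RpII2154/FM7 was set against yw, and the combined genotype against Marcal1del/del, both across the array series. In the first, 1 of the 31 genes was called, myo, where 2.76% of all probe sets were. In the second, 2 were called, Sox102F and fuss, where 3.85% of all probe sets were. These shares of the listed genes are near those of all probe sets. An unadjusted limma p under 0.05 was found for 7 and 10 of the 31 genes, against 3221 and 3748 of 18769 probe sets. The medians over the 31 genes were 0.01 and 0.08, against 0.00 and 0.04 over all genes.

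The gene fuss, which encodes a protein of the Ski and Sno family of transcriptional corepressors, read 6.25, 6.47 and 6.63 in the combined genotype. In Marcal1del/del at 20 °C it read 5.33, 5.06 and 4.93, and these groups did not overlap. The rise was 2.54-fold (1.35 ± 0.21 SE, adjusted p = 0.0014, limma), and it was called in every alternative tried, with changes of 1.26 to 1.46. In the same comparison all 14 eggshell genes were lower, with a median of -1.91. The 3′ minus 5′ actin signal was 1.48 to 2.04 in the combined genotype and 0.95 to 1.23 in Marcal1del/del. The part of these differences in the fuss result was not tested. In yw at 20 °C fuss read 5.01, 5.88 and 5.75, and in RpII2154/FM7 5.81, 6.46 and 5.69, groups that overlap. The 25 °C arrays read 6.12, 6.05 and 5.99 in yw and 5.78, 5.72 and 5.71 in Marcal1del/del. The temperature difference in Marcal1del/del, 0.63 ± 0.21, was not called (adjusted p = 0.64), although those groups did not overlap. For fuss the Marcal1del/del effect with the RpII215 allele exceeded that without it by 0.91 ± 0.30 (adjusted p = 0.23). Without yw replicate 1 at 20 °C, which stood apart, it was 1.17 (adjusted p = 0.037), and with array weights 1.14 (adjusted p = 0.027). The difference was not called with all 3 outlying arrays left out, or without yw replicate 2 or 3 at 20 °C.

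For myo, the gene of the TGF-beta family ligand myoglianin, the arrays read 3.36, 3.21 and 3.36 in yw and 2.78, 2.86 and 3.04 in RpII2154/FM7. They read 3.09, 3.06 and 3.14 in Marcal1del/del and 3.11, 2.99 and 2.89 in the combined genotype. At 25 °C they read 3.38, 3.09 and 3.19 in yw and 3.09, 3.11 and 3.07 in Marcal1del/del. All of these lie below the array medians. The change between RpII2154/FM7 and yw was -0.42 ± 0.10 SE (adjusted p = 0.03, limma). The call was lost when only those 6 arrays were fitted (adjusted p = 0.20), when array medians were subtracted (adjusted p = 0.072), and without any of 5 of the 6 arrays. Those 5 were yw replicates 1, 2 and 3 and RpII2154/FM7 replicates 1 and 2 (adjusted p = 0.057, 0.051, 0.12, 0.11 and 0.075).

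**Figure D4:**
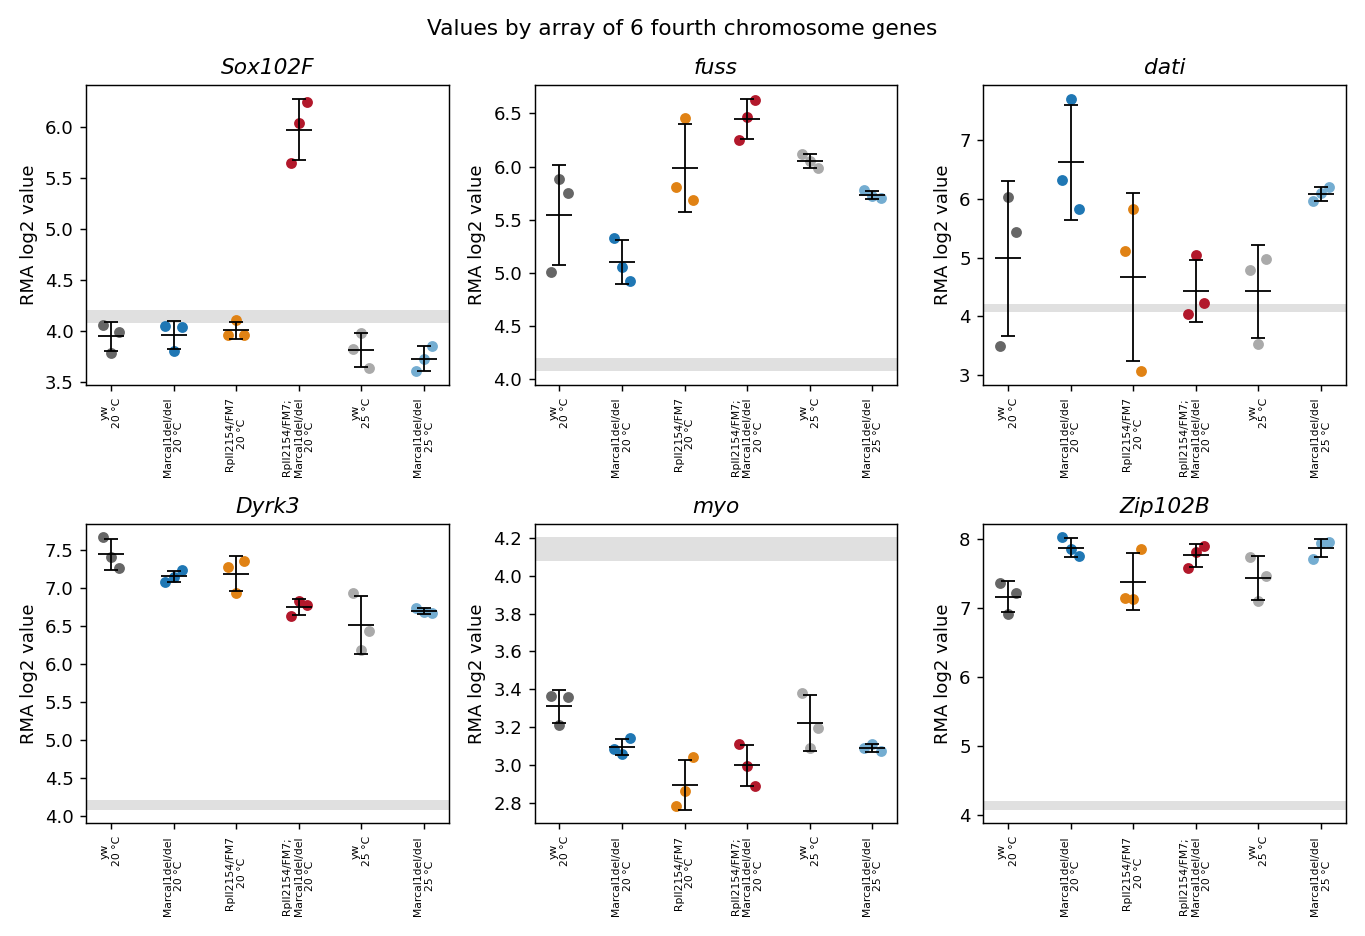
RMA log2 values of 6 of the genes on each array (points, 3 a group), with the group mean and SD (bars). The grey band spans the medians of the 18 arrays, 4.08 to 4.20. Sox102F lies above the band only in the combined genotype and at or below it elsewhere, fuss is highest there, and dati spreads from 3.07 to 7.71.

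The largest difference of the listed genes against Marcal1del/del was that of dati, -2.19 ± 0.69 SE, which was not called with all arrays (adjusted p = 0.09, limma). It was called with the 3 outlying arrays left out (adjusted p = 0.011) and with only the compared arrays fitted (adjusted p = 0.041). The change stayed at -2.19 in both, because none of the 3 arrays is in either group. Only the estimate of the spread changed. The second dati probe set, which averaged 2.84, differed in this comparison by 0.25 ± 0.14, the opposite sign, and was not called. The arrays left out include yw replicate 1 at 20 °C and RpII2154/FM7 replicate 3, where dati read 3.50 and 3.07. The eggshell means of the same arrays were 10.31, 11.35 and 10.91 in the combined genotype and 12.97, 13.11 and 12.17 in Marcal1del/del, so both dati and the eggshell mean were lower in the combined genotype. Of the 14 eggshell genes, all lower here, 2 were called, Cp36 and Cp38, with changes of -1.91 and -1.90 (adjusted p = 0.038 and 0.04).

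The signalling factor gene ci read 6.86, 6.42 and 6.34 in yw and 6.73, 6.31 and 6.03 in Marcal1del/del at 20 °C. In RpII2154/FM7 it read 7.23, 6.72 and 8.05, and in the combined genotype 6.29, 6.60 and 7.16. Kept at 25 °C, the flies gave 6.97, 5.26 and 6.01 in yw and 6.19, 6.36 and 6.13 in Marcal1del/del. The difference between RpII2154/FM7 and yw, 0.79 ± 0.37 SE, was not called (adjusted p = 0.29), and these groups overlapped. Without RpII2154/FM7 replicate 3 it was 0.43 (adjusted p = 0.63), and without all 3 outlying arrays 0.59 (adjusted p = 0.29). In that comparison 17 of 19 muscle genes were higher (median 0.74, 0 called by limma, 6 with an unadjusted p under 0.05). The array with the highest ci value also had a muscle mean of 7.47, against 5.58 to 7.88 over all arrays, and an eggshell mean of 8.47, the lowest of all. The part of the muscle and eggshell differences in the ci values was not tested.

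Mitf, which encodes a basic helix-loop-helix factor of lysosome genes, was as uneven. It read 4.45, 4.56 and 4.52 in yw, 4.05, 4.75 and 4.38 in Marcal1del/del, 4.90, 4.62 and 5.58 in RpII2154/FM7 and 4.22, 4.70 and 5.24 in the combined genotype. At 25 °C it read 5.11, 3.77 and 4.35 in yw and 4.84, 4.50 and 4.32 in Marcal1del/del. As for ci, its highest value was on RpII2154/FM7 replicate 3 and its lowest on yw replicate 2 at 25 °C. No comparison called it.

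Among the guidance and adhesion genes, Crk and Eph varied little. Crk, an SH2 and SH3 adaptor gene, read 10.78, 10.45 and 10.57 in yw and 10.92, 10.73 and 10.87 in Marcal1del/del at 20 °C. It read 10.85, 10.97 and 10.81 in RpII2154/FM7 and 10.81, 11.03 and 10.79 in the combined genotype. The 25 °C arrays read 10.66, 10.99 and 10.94 in yw and 10.76, 11.09 and 11.08 in Marcal1del/del. The group means of Crk spanned 0.37, and none of its differences was called, although RpII2154/FM7 and yw did not overlap. For Eph, whose 20 °C values with the RpII215 allele are given above, yw read 8.89, 9.05 and 8.93 and Marcal1del/del 8.92, 8.94 and 9.21. At 25 °C Eph read 8.90, 9.12 and 9.04 in yw and 9.02, 8.88 and 8.99 in Marcal1del/del. Its group means spanned only 0.20.

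PlexB, a receptor gene for semaphorins, read 9.37, 9.27 and 9.32 in yw and 8.98, 9.15 and 9.21 in Marcal1del/del at 20 °C. It read 9.0, 8.93 and 9.03 in RpII2154/FM7 and 8.53, 8.91 and 8.78 in the combined genotype. Kept at 25 °C, the flies gave 9.11, 8.96 and 9.0 in yw and 9.20, 9.07 and 9.27 in Marcal1del/del. The yw arrays at 20 °C were above all others except Marcal1del/del replicate 3 at 25 °C, which equalled the lowest of them, and the combined genotype was the lowest group. The difference between the combined genotype and Marcal1del/del was -0.37 ± 0.10 SE (adjusted p = 0.053, limma). It was called when dim probe sets were left out (adjusted p = 0.034) and when the table was quantile normalized again (-0.43, adjusted p = 0.03). It was called also without replicate 2 of the combined genotype (-0.46, adjusted p = 0.033). PlexB had 3 further probe sets. All of them differed with the opposite sign in that comparison, and none was called. They averaged 6.70, 4.30 and 3.94, with differences of 0.09 ± 0.12, 0.74 ± 0.33 and 0.17 ± 0.18. The mean over the 4 sets differed by 0.16 (adjusted p = 0.56), so the direction for PlexB depends on the probe set.

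Of the genes named for synaptic functions, unc-13 and Slip1 had signal on all arrays. The gene unc-13, whose protein primes synaptic vesicles, read 7.13, 7.54 and 7.44 in yw and 7.36, 7.73 and 7.55 in Marcal1del/del at 20 °C. It read 7.34, 6.99 and 7.66 in RpII2154/FM7 and 7.18, 7.52 and 7.46 in the combined genotype. At 25 °C it read 8.13, 7.09 and 7.46 in yw and 8.12, 7.69 and 7.84 in Marcal1del/del, groups that overlap like the others. Its highest value was on yw replicate 1 at 25 °C, the array with the highest muscle mean. Slip1, which encodes a partner of the potassium channel Slowpoke, read 9.77, 9.42 and 9.35 in yw and 9.59, 9.48 and 9.76 in Marcal1del/del at 20 °C. It read 9.62, 9.41 and 9.55 in RpII2154/FM7 and 9.69, 9.87 and 9.59 in the combined genotype. The 25 °C arrays read 9.30, 9.68 and 9.61 in yw and 9.52, 9.64 and 9.86 in Marcal1del/del. Neither gene was called in any comparison. The neuronal markers named above were near the low end of the array, and what cells gave these signals was not measured.

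The other synaptic genes were low. On the 18 arrays mGluR, a metabotropic glutamate receptor gene, read 2.77 to 3.64, Syt7, a synaptotagmin gene, 2.64 to 3.28, and Gat, the GABA transporter gene, 3.00 to 3.70. All were below the array's median throughout. Cadps, an activator gene of dense-core vesicle release, read 3.21 to 4.30 and exceeded the median on 1 array, Marcal1del/del replicate 1 at 20 °C. Its difference between the combined genotype and Marcal1del/del was -0.57 ± 0.16 SE (adjusted p = 0.056, limma). Without Marcal1del/del replicate 2 it was -0.70 (adjusted p = 0.046), which is a call. A second Cadps set, which averaged 3.15, differed by -0.05 ± 0.11 there. Against RpII2154/FM7 the 2 sets differed in sign, by -0.34 ± 0.16 and 0.35 ± 0.11, and neither was called.

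Among the genes of general cell function, gw and Ank had the narrowest spans of group means. The arrays of gw read 11.15, 11.30 and 11.20 in yw and 11.14, 11.29 and 11.28 in Marcal1del/del at 20 °C. They read 11.06, 11.08 and 11.14 in RpII2154/FM7 and 11.07, 11.21 and 11.24 in the combined genotype. At 25 °C they read 11.14, 11.24 and 11.16 in yw and 11.34, 11.15 and 11.30 in Marcal1del/del, so that all group means of gw lay within 0.17. Ank, an ankyrin gene, read 10.02, 9.89 and 9.82 in yw and 9.84, 9.88 and 9.998 in Marcal1del/del at 20 °C. It read 9.90, 9.85 and 9.89 in RpII2154/FM7 and 9.72, 9.90 and 9.75 in the combined genotype. Kept at 25 °C, the flies gave 9.87, 9.86 and 9.79 in yw and 9.87, 9.92 and 9.93 in Marcal1del/del. The group means of Ank spanned 0.12, the smallest span among the 31 genes. A second probe set of Ank averaged 3.36 and is not in that span.

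Pur-alpha, whose protein binds single-stranded nucleic acids, read 8.84, 8.45 and 8.53 in yw and 8.59, 8.47 and 8.78 in Marcal1del/del at 20 °C. It read 8.34, 8.84 and 8.55 in RpII2154/FM7 and 8.73, 8.93 and 8.58 in the combined genotype. At 25 °C it read 8.07, 8.81 and 8.70 in yw and 8.24, 8.54 and 8.51 in Marcal1del/del. The groups overlapped in all 7 comparisons of 2 groups. Thd1 (current symbol Tdg), the thymine DNA glycosylase gene, read 8.23 to 8.98 over the 18 arrays with a median of 8.60. No comparison called it. Asator, which encodes a kinase of the tau-tubulin kinase family, read 4.38 to 5.76 with a median of 5.15 and was likewise not called.

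The remaining regulators were low throughout. The Pax factor genes ey, toy and sv read 3.61 to 4.62, 2.86 to 3.60 and 2.84 to 3.36. Of these, ey exceeded the array's median on 6 arrays, and the others on none. The genes fd102C, zfh2 and onecut (a factor of the CUT and homeodomain class) read 2.75 to 3.56, 2.48 to 3.27 and 2.50 to 3.01. For ey the difference between RpII2154/FM7 and yw was -0.50 ± 0.15 SE (adjusted p = 0.092), with groups that did not overlap. The gene yellow-h, of the yellow family, read 2.65 to 3.82 and was not called.

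Other genes of the chromosome were counted through all 34 with a probe set. One of them was called in Marcal1del/del against yw at 20 °C, Ekar, which encodes a kainate-type glutamate receptor subunit. It read 4.82, 4.1 and 3.68 in Marcal1del/del and 2.79, 3.27 and 3.12 in yw (1.14 ± 0.23 SE, adjusted p = 0.016, limma). Ekar averaged 3.33 and exceeded the array's median on only 1 of the 18 arrays, so its values lie near the low end of the array. In the other 4 groups Ekar read 2.79 to 3.45, and it was 1.01 lower in the combined genotype than in Marcal1del/del (change -1.01 ± 0.23, adjusted p = 0.02). One was called in the combined genotype against RpII2154/FM7, Cals, the calsyntenin gene, which read 7.77, 8.13 and 8.0 against 8.94, 8.48 and 8.87 (-0.80 ± 0.18, adjusted p = 0.036). Beside Ekar, mav, a TGF-beta family ligand gene, was called in the combined genotype against Marcal1del/del. It read 8.51, 8.74 and 8.76 against 9.28, 9.18 and 9.45 (-0.63 ± 0.15, adjusted p = 0.028). Of all probe sets, 1.18%, 1.88% and 3.85% were called in these 3 comparisons, in the order given by Ekar, Cals and mav. In the other 6 comparisons 0 of the 34 were called by limma, while 1 to 7 had an unadjusted p under 0.05. Of all 18769 probe sets, 0.0107% to 2.76% were called there, and 295 to 3221 had an unadjusted p under 0.05. The medians of their changes lay between -0.07 and 0.08.

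The muscle gene bt, which encodes the giant protein projectin, lies just before MED26 on the chromosome and was singled out after its values were seen. It read 8.40, 7.81 and 9.11 in RpII2154/FM7 and 6.84, 6.87 and 7.68 in the combined genotype, a change of -1.31 that was not called. On the same arrays the muscle marker mean was 7.43, 6.97 and 7.47 against 6.15, 5.93 and 6.73. On yw replicate 1 at 25 °C, where the muscle mean was 7.88, bt read 9.13, against 5.80 and 6.73 on the other arrays of the group. In the muscle list 13 of 19 genes were above every array median and 2 below every one.

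Factors that act on the fourth chromosome were looked at through a list of heterochromatin and promoter regulators, among them Pof, Setdb1 and the HP1a gene. Of 14 measured, 13 were above every array median. In none of the 9 comparisons was one of them called by limma, while 0 to 4 had an unadjusted p under 0.05. The number of positive changes among the 14 ranged over the comparisons from 2, in the difference between temperatures (median -0.09), to 13, in the combined genotype against RpII2154/FM7 (median 0.18). Over all 11982 genes, 5250 and 6615 changes were positive in these 2 comparisons, with medians of -0.02 and 0.03. Over the 9 comparisons, 207 to 2606 of the 11982 genes had an unadjusted p under 0.05, and 0.0107% to 3.85% of all probe sets were called.

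Partners of the listed genes gave single calls, read against the shares of all probe sets called, which were 2.76% in RpII2154/FM7 against yw, 1.88% in the combined genotype against RpII2154/FM7 and 0.256% with temperature in yw. Of 13 measured Hedgehog pathway genes, smo, the signal transducer upstream of ci, fell in RpII2154/FM7 against yw (-0.47 ± 0.10 SE, adjusted p = 0.023), and rasp, the acyltransferase gene of the Hedgehog ligand, rose with temperature in yw (0.57 ± 0.11, adjusted p = 0.032). Of 6 Wingless pathway genes, por, the acyltransferase gene of Wnt ligands, fell in RpII2154/FM7 (-0.59 ± 0.14, adjusted p = 0.034). Of 13 partners of gw, loqs, whose protein assists Dicer, rose in the combined genotype over RpII2154/FM7 (0.69 ± 0.16, adjusted p = 0.032). The decay factor gene Patr-1 fell in RpII2154/FM7 against yw (-0.52 ± 0.11, adjusted p = 0.021). Of 15 Polycomb group partners of pho, esc fell there too (-0.47 ± 0.10, adjusted p = 0.02). Each of the other measured members of these lists missed the threshold in all 9 comparisons. The lists held 15 Hedgehog pathway genes, 19 Wingless pathway genes, 20 partners of gw and 20 of pho, and those not measured were not tested.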

How the data were processed

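The deposited log2 values were made by the authors with RMA, per the submitters' processing notes. The RMA version is not given in the sources used here. This step equalizes the arrays' distributions, which hides any change common to most RNAs. Of 18952 probe sets, 183 were controls, and the other 18769 were all tested. The platform annotation named 1 gene for 13647, several for 402 and none for 4720. The annotation's build was not given, so only gene order from Release 6 was used.

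Groups follow the sample titles. limma (version 3.58.1 in R 4.3.3) was fitted on 18 arrays with a group term (12 residual and 3.85 prior degrees of freedom), and tests were 2-sided. In data simulated with the means and spreads of the probe sets, limma recovered 46 to 54% of 1.5-fold changes between 2 groups. For a difference of effects it recovered 24% between temperatures and 20% with the RpII215 allele. A gene without a call can therefore have changed. Equal replicate numbers gave no clear sign of paired samples, although this check cannot exclude pairing. Deviations of same-numbered arrays correlated from -0.33 to 0.47, with a median of -0.03. Those of differently numbered arrays correlated from -0.45 to 0.39, with a median of 0.01.

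Members and lists were chosen with earlier results of these data known. Genes described in full were those called, and up to 3 a role whose lowest group mean lay furthest above the array medians. Other genes of the chromosome and list members were named when called. Alternatives changed the arrays fitted, replicate block, dim filter (mean above 4.15), normalization, probe set choice, variance model, array weights and arrays left out.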

Additional observations from a re-analysis of the deposited data

Results flagged for a closer look

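Sox102F is singled out because its Marcal1del/del effect differed with the RpII215 allele by the test of the difference itself. The difference of log2 changes was 1.95 ± 0.20 SE (adjusted p = 3.4e-05, limma). It comes from the 3 arrays of the combined genotype, at 5.65 to 6.25, while the other 15 arrays lay at 3.61 to 4.1.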

How the results depend on the processing

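Counts of called genes among the 31 kept to within 1.5 times of the values reported in 131 of 156 repeats. A count of 0 that stayed at 0 was scored as kept, and whether the same genes were called was not scored. Array weights, whose estimation stopped before its tolerance, gave 4 of 31 for Marcal1del/del against yw at 20 °C. At 25 °C they gave 2, and without the 3 arrays that stood apart the count at 20 °C was 2. For temperature in yw the count was 0 with only the compared arrays and 7 with array weights. For the combined genotype against RpII2154/FM7 it was 2 without the arrays that stood apart, and for the difference of effects with RpII2154/FM7 2 with array weights. For RpII2154/FM7 against yw it was 0 with only the compared arrays, without dim probe sets or with array medians subtracted, 6 with array weights and 2 without the arrays that stood apart. For the combined genotype against Marcal1del/del it was 6 without those arrays, none of which is in these groups. Leaving out 1 array at a time gave 0 to 1 for Marcal1del/del against yw at 20 °C and 0 at 25 °C, 0 to 1 for temperature in yw, 0 in Marcal1del/del and 0 for the difference between temperatures. It gave 1 to 2 for the combined genotype against RpII2154/FM7 and for the difference of effects, 0 to 1 for RpII2154/FM7 against yw and 2 to 4 for the combined genotype against Marcal1del/del. With a replicate block the counts were those reported (1 for temperature in yw, 1 for the combined genotype against RpII2154/FM7). Of 18 arrays, 5 matched best an array of their own number in another group. Over all probe sets, the count for temperature in yw was 48 as reported, 5109 with array weights, 788 without the arrays that stood apart and 2 with only the compared arrays. For RpII2154/FM7 against yw these were 518, 2175, 666 and 137. Without the arrays that stood apart the combined genotype gave 743 against RpII2154/FM7 (352 as reported) and 1271 against Marcal1del/del (722 as reported). For Marcal1del/del against yw at 20 °C the whole table gave 1270 with array weights and 385 without those arrays (221 as reported). With array weights it gave 1233 at 25 °C (230 as reported) and 275 for the difference of effects with RpII2154/FM7 (182 as reported). In these settings counts rose over the whole table too. None of the 6 called changes reversed. Among 19 named changes that were not called, 1 reversed in the alternatives checked. It was PlexB in the combined genotype against Marcal1del/del, at 0.16 with the mean over its probe sets. That check did not use a gene's second probe set alone. With its second set dati also had the opposite sign, against yw at 25 °C (-0.33) and in the combined genotype against Marcal1del/del (0.25). Cadps against RpII2154/FM7, whose 2 sets differed in sign, was not among the 19. The cause of these moves was not tested.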
